A study of Homo sapiens with 6 samples.

Results

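The glycolysis and hypoxia response genes described here are 33 genes, made up of 17 enzymes of glycolysis and its control, 3 sugar or lactate transporters, and 13 genes of the response to low oxygen, among them HIF1A. They were taken by name, and all probe sets that the array's annotation assigns to a member alone were used. This gave 55 probe sets for 31 genes, out of 22283 probe sets on the array and 11960 genes named alone. No probe set was named alone for SLC16A3, a lactate exporter, or CA9, a carbonic anhydrase, and both were not analysed here. All RNA came from MDA-MB-231, an established line of human breast cancer cells with mesenchymal traits. In 3 independent experiments the cells received by electroporation an siRNA against parathyroid hormone-related protein (siPTHrP) or the control siRNA siLuc, and RNA was taken 3 days later. Each group thus held 3 arrays, 1 per experiment, and siPTHrP was compared with siLuc RNA of the same experiment. All groups shared the cell line, the electroporation and the harvest time. Labels state no siRNA sequence, and the targeted transcript was not analysed here, so the knockdown was not checked. Line markers VIM, CD44, AXL, FN1 and CAV1 lay at or above the 93.3rd percentile of probe set brightness, while SPARC lay at the 18.2nd, and epithelial CDH1 and EPCAM lay at the 17.1st and 19.9th. Of the other markers taken as low in this line, PGR lay at the 3.47th, but ESR1, GATA3 and ERBB2 passed the filter at the 49.1st, 61st and 63.8th. Of 10 markers of leukocytes, endothelium and fibroblasts, 5 exceeded the brightness filter of the test, the brightest being COL1A1 at 1949 to 3198 over the 6 arrays. Results are from 1 cell line. The p-values rest on the spread between these 3 experiments, drawn toward that of other probe sets of like brightness.

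Glycolysis splits glucose into pyruvate in the cytosol, and lactate dehydrogenase turns pyruvate into lactate. Many tumour cells, MDA-MB-231 among them, take up much glucose and release lactate even with oxygen present. When oxygen is low, the transcription factor subunit HIF1A escapes degradation, pairs with ARNT and activates glucose transporters, most glycolytic enzymes and a set of further genes. HIF1A is controlled mainly through its protein, so its transcript level is not a measure of its activity. In bulk RNA, fewer cells of a kind and less RNA per cell cannot be told apart.

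One array, that of siLuc cells in experiment 1, differed most from the rest. Its Spearman rank correlation with the other 5 arrays was 0.716 to 0.725, across probe sets, while those 5 correlated at 0.882 to 0.960 among one another. Its spiked hybridisation controls, 18 probe sets, had a geometric mean signal of 273100, against 10840 to 41430 on the other 5 arrays. Median signals were 559 to 593 on siPTHrP arrays and 652 to 887 on siLuc arrays. Several values that rest on that array are therefore also given without experiment 1, or without that array.

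Not one member passed the threshold with all arrays at equal weight. Of the 55 probe sets, 54 were bright enough to be tested, covering 30 genes, and 0 had a Benjamini-Hochberg adjusted p under 0.05 in the limma fit over 13329 probe sets. Over all tested probe sets percent called was 0 as well, but 38, 46 and 175 probe sets passed when experiment 1, 2 or 3 was left out, among them 0, 1 and 2 of the members. With arrays weighted by their fit 177 probe sets passed, among them 1 of ENO1 and 1 of BHLHE40. At an unadjusted p under 0.05 the members had 4 probe sets higher and 1 lower with siPTHrP, or 9.26% of those tested. With no replicate block, the experiment left out of the model, these were 2 higher and 1 lower. With each array centred on its median they were 10 higher and 1 lower, while all tested probe sets then had 1930 higher and 185 lower. With the block kept and no centring, where members had 9.26%, an unadjusted p under 0.05 held for 12.1% of all tested probe sets. Of all tested probe sets 6.77% were higher and 5.36% lower. Signals of the groups did not overlap for 6 higher and 2 lower member probe sets, against 18.6% of all tested probe sets, 8.94% higher and 9.69% lower. For 16 of 54 the 3 experiments shared 1 sign, as for 38.1% of all tested probe sets. These shares do not set the members apart from the array as a whole.

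Glycolytic enzymes showed no common direction. Over the brightest probe set of each of the 17 genes the median log2 fold change (siPTHrP over siLuc, on the log2(signal + 16) scale) was 0.047, beside 0.030 for all tested probe sets. Many of these enzymes had bright probe sets, and the 100 brightest tested probe sets had a median of -0.28. Genes above 0 numbered 9, and 8 were below. Medians in experiments 1, 2 and 3 were 0.13, -0.098 and 0.030. The range over genes ran from -0.52 for GAPDH to 0.51 for PFKFB4, which makes a regulator of phosphofructokinase. PFKFB4 was too dim for the test, with signals of 272 to 473 in siPTHrP cells and 100 to 446 in siLuc cells. With quantile normalization the median of the enzymes turned to -0.048.

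**Figure D1:**
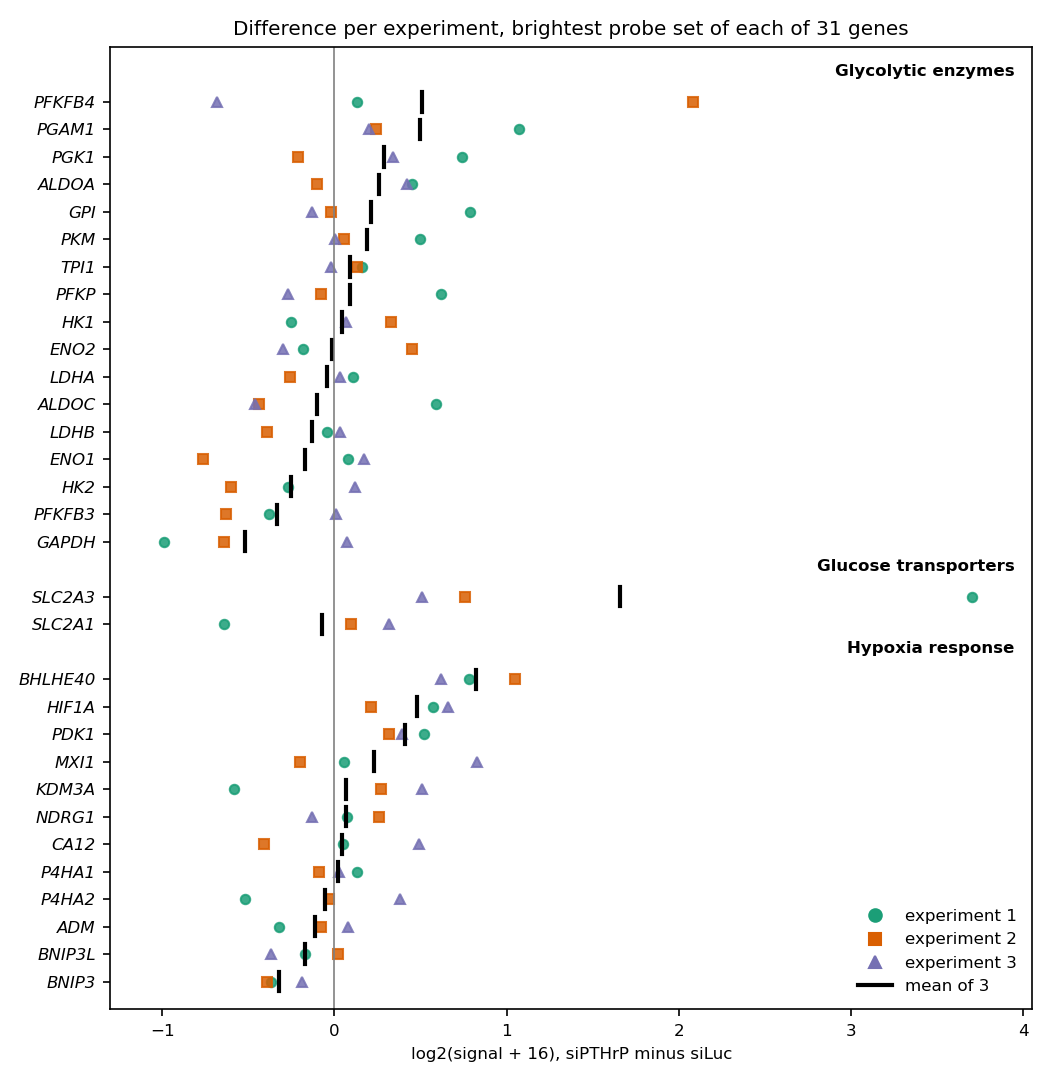
Difference in log2(signal + 16), siPTHrP minus siLuc, on the x axis for the brightest probe set of each of 31 genes, with 1 point per experiment and a black bar for the mean of 3. Most genes scatter around 0, and the siLuc array of experiment 1 sets the far point of SLC2A3 at 3.70.

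At the entry steps of the pathway no probe set had an unadjusted p under 0.05. HK1, a hexokinase that traps glucose as its phosphate, stood at 1.03-fold (95% interval of the limma fit 0.771 to 1.38). HK2, the hexokinase typical of tumours, stood at 0.843-fold (0.607 to 1.17) on its brighter probe set. Its dimmer probe set gave 1.73-fold with an interval of 0.565 to 5.28, and the sign differed between experiments. Without experiment 1 this set gave 3.08-fold, and without only its siLuc array, unpaired, 3.31-fold (unadjusted p = 0.00697). GPI, which converts glucose phosphate to fructose phosphate, stood at 1.16-fold, and PFKP, the platelet form of phosphofructokinase, at 1.07-fold. Without experiment 1 both turned to the other side of 1, GPI at 0.948-fold and PFKP at 0.887-fold. PFKFB3, which makes the activator of phosphofructokinase, stood at 0.794-fold (0.473 to 1.33). Of the aldolases, ALDOA stood at 1.20-fold and 1.05-fold on its 2 probe sets and ALDOC at 0.931-fold. ALDOC was 0.732-fold without experiment 1.

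In the middle of the pathway PGAM1, TPI1 and PGK1 were higher in every experiment on 1 probe set each, for PGAM1 its only one. TPI1, which interconverts the triose phosphates, had 21549, 22087 and 22475 on siPTHrP arrays and 15768, 18446 and 18894 on siLuc arrays. These groups did not overlap, at 1.25-fold (log2 0.32, SE 0.15, unadjusted p = 0.0680, adjusted p = 0.438). Its brightest probe set gave 1.07-fold, and its dimmest 0.948-fold, with 0.437, 0.491 and 3.96 by experiment. PGAM1, a phosphoglycerate mutase, had 23352, 27103 and 24514 with siPTHrP and 11139, 22887 and 21381 with siLuc. The groups did not overlap, but the low siLuc value came from experiment 1. The fold was 1.42 (log2 0.50, SE 0.20, unadjusted p = 0.0334, adjusted p = 0.396), and 1.17 without experiment 1 (unadjusted p = 0.226). With no replicate block the unadjusted p was 0.0883. PGK1, which makes ATP in the pathway, had 22675, 18466 and 16825 with siPTHrP and 12376, 16405 and 16749 with siLuc on one probe set. That is 1.27-fold (unadjusted p = 0.108), with a smallest siPTHrP value barely above the largest of siLuc. Without experiment 1 this set gave 1.06-fold. The other 3 probe sets of PGK1 gave 1.22-fold, 1.00-fold and 0.748-fold. Of these the 1.22-fold became 1.05-fold without experiment 1.

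Enolase was the gene with the smallest p and also one whose probe sets disagreed. ENO1 had 2225, 2647 and 5805 in siPTHrP cells and 8386, 6594 and 7447 in siLuc cells on its dimmest probe set. All siPTHrP values lay below all siLuc values, and the fold was 0.438 (log2 -1.19, SE 0.28, unadjusted p = 0.00189, adjusted p = 0.321). Without experiment 1 it was 0.561-fold (adjusted p = 0.115), and without experiment 3 the adjusted p was 0.000181. By experiment the fold was 0.267, 0.403 and 0.78, so the fit without experiment 3 drops the smallest difference. That fit has 1 residual degree of freedom. With arrays weighted by their fit this set had an adjusted p of 0.0263. The brighter probe sets of ENO1 did not share this difference. One had 39058, 34399 and 46033 with siPTHrP and 36972, 58085 and 40989 with siLuc, or 0.889-fold (0.642 to 1.23). The other had 29402, 26727 and 31465 with siPTHrP and 27082, 26896 and 26776 with siLuc, and its groups overlapped too. ENO2, the neuronal enolase, stood at 0.992-fold (0.700 to 1.41).

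At the end of the pathway no probe set passed an unadjusted p of 0.05. LDHA, the lactate dehydrogenase subunit that favours lactate, had 27242, 25642 and 23448 in siPTHrP cells and 25273, 30681 and 22962 in siLuc cells. The groups overlapped, at 0.973-fold with an interval of 0.756 to 1.25 (adjusted p = 0.930). LDHB, the other subunit, stood at 0.912-fold and 0.959-fold on its 2 probe sets. PKM, pyruvate kinase of muscle and tumour, stood at 1.14-fold (0.873 to 1.48) on its brighter one. These intervals include 1, and differences within them were not detectable with 3 arrays a group.

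GAPDH, often taken as a constant reference transcript, was lower with siPTHrP in experiments 1 and 2 and not in experiment 3. Its brightest probe set had 119298, 115760 and 226584 on siPTHrP arrays and 237296, 180933 and 215618 on siLuc arrays. Per experiment this was 0.503-fold, 0.640-fold and 1.05-fold. The mean was 0.697-fold (log2 -0.52, SE 0.24, unadjusted p = 0.0574, adjusted p = 0.424), and the groups overlapped. The second probe set gave 0.712-fold and the third 0.868-fold, with the same 2 experiments below 1. Affymetrix's own control probe sets along GAPDH gave 0.784-fold at the 3' end, 0.988-fold in the middle and 0.892-fold at the 5' end. With quantile normalization the log2 fold change of the brightest set was -0.048. Bright probe sets as a group also differed by experiment, and the 100 brightest on the array had a median log2 difference of -0.52, -0.37 and 0.0026 in experiments 1, 2 and 3. Hybridisation controls stood at 10840 on siPTHrP and 273100 on siLuc in experiment 1, 11660 and 22870 in experiment 2, and 40210 and 41430 in experiment 3. Ribosomal RNA controls, 12 probe sets, stood at 1295 on siPTHrP and 84970 on siLuc in experiment 1, 3601 and 15330 in experiment 2, and 15130 and 14730 in experiment 3. The part of these technical values in the GAPDH difference was not tested.

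**Figure D2:**
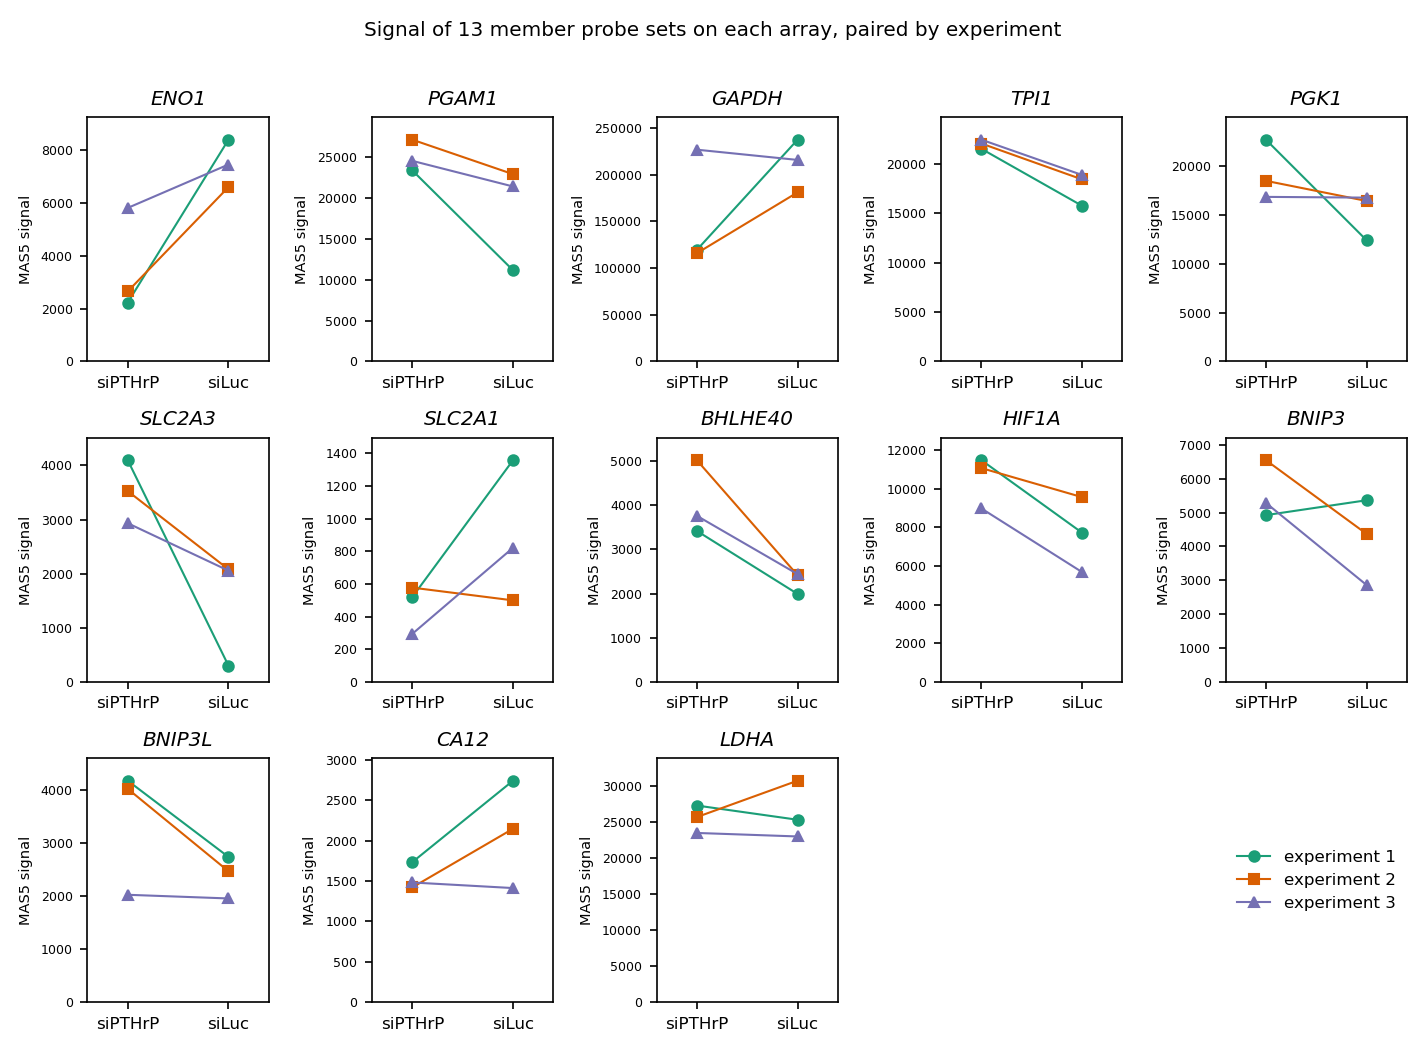
MAS5 signal (linear, y axis from 0) of 13 member probe sets on each array, with siPTHrP on the left and siLuc on the right of each panel and lines joining arrays of 1 experiment. BHLHE40, SLC2A3, PGAM1, TPI1 and PGK1 show all siPTHrP points above all siLuc points, ENO1 shows all below, and GAPDH is lower in experiments 1 and 2.

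The glucose transporters gave unlike values, none past the adjusted threshold with all arrays. SLC2A3 encodes GLUT3, a transporter of high affinity that is common in neurons and in aggressive tumours, and its 3 probe sets were all higher with siPTHrP in all 3 experiments. The brightest had 4098, 3527 and 2933 in siPTHrP cells, against 299.6, 2080 and 2056 in siLuc cells. All siPTHrP values lay above all siLuc values, but the first siLuc value was far below the other siLuc values. The fold was 3.15 (log2 1.66, SE 0.54, unadjusted p = 0.0132, adjusted p = 0.360). By experiment it was 13, 1.69 and 1.42. With experiment 1 left out it was 1.55 (unadjusted p = 0.0138, adjusted p = 0.232), and without only that siLuc array, unpaired, 1.68 (unadjusted p = 0.00616). The adjusted p was 0.0270 without experiment 2 and 0.000664 without experiment 3, fits that keep the low siLuc array.

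The second SLC2A3 probe set had 2319, 2146 and 1788 with siPTHrP and 1994, 1213 and 1412 with siLuc, or 1.37-fold (unadjusted p = 0.132). The third had 1344, 873 and 625 with siPTHrP and 582.8, 468 and 549 with siLuc, or 1.68-fold (unadjusted p = 0.145). Groups overlapped in the second and not in the third. A near-identical copy, SLC2A14, may share signal with these sets, and 2 further probe sets that name more than 1 gene were not used. SLC2A1, which encodes GLUT1, the main glucose carrier of proliferating cells, stood at 0.950-fold (0.663 to 1.36) on its brighter probe set. The dimmer set had 519, 577 and 294 with siPTHrP and 1357, 499 and 821 with siLuc, which overlapped (0.550-fold, unadjusted p = 0.148). The difference between SLC2A3 and SLC2A1 was not tested.

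On the brightest probe set of each gene, the hypoxia response likewise had no shared direction. The median log2 fold change over the brightest probe set of 12 genes was 0.055, with 8 above 0 and 4 below, beside 0.030 for all tested probe sets. In experiments 1, 2 and 3 the medians were 0.053, -0.0052 and 0.38. The median depended on the probe sets used, and lay further above 0 once those marked _x_at or _s_at were dropped (given below). Of their 20 tested probe sets 2 had an unadjusted p under 0.05, both higher with siPTHrP, those of BHLHE40 and HIF1A. This was 10% of them, beside 12.1% of all tested probe sets.

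BHLHE40, a repressor of transcription with a helix-loop-helix domain that is induced by hypoxia and takes part in the circadian clock, was the hypoxia gene with the smallest p. It had 3418, 5019 and 3760 in siPTHrP cells and 1991, 2415 and 2440 in siLuc cells. The groups did not overlap, and the fold was 1.76 (95% interval 1.25 to 2.47, log2 0.82, SE 0.22, unadjusted p = 0.00434, adjusted p = 0.324). Without experiment 1 it was 1.78 (adjusted p = 0.108), and without only the siLuc array of that experiment, unpaired, 1.65 (unadjusted p = 0.00888). With arrays weighted by their fit the adjusted p was 0.0409. The other BHLHE40 probe set had 1352, 1453 and 1057 with siPTHrP and 158.6, 1545 and 923 with siLuc. That set gave 2.03-fold with all arrays and 1.04-fold without experiment 1.

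HIF1A, the oxygen-regulated subunit of the hypoxia-inducible factor, had 11478, 11068 and 8979 with siPTHrP and 7720, 9563 and 5682 with siLuc on its 1 probe set. It was higher in 3 of 3 experiments, although the lowest siPTHrP value lay below the highest siLuc value. The fold was 1.39 (1.06 to 1.83, log2 0.48, SE 0.17, unadjusted p = 0.0210, adjusted p = 0.377) and 1.35 without experiment 1. Its unadjusted p was 0.0550 with no replicate block. PDK1, a pyruvate dehydrogenase kinase, stood at 1.33-fold and was also higher in each experiment. Its interval ran from 0.712 to 2.47 (unadjusted p = 0.332), and its groups overlapped.

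BNIP3 and BNIP3L, mitophagy receptors on the mitochondrial outer membrane, each gave opposite directions on their 2 probe sets. BNIP3 had 4926, 6549 and 5287 with siPTHrP and 5366, 4369 and 2859 with siLuc on one, or 1.36-fold (unadjusted p = 0.0814). Its brighter set had 3577, 4603 and 5955 with siPTHrP and 4631, 6025 and 6797 with siLuc, or 0.803-fold (unadjusted p = 0.112), lower in each experiment. For BNIP3L the values were 4172, 4019 and 2025 with siPTHrP and 2737, 2467 and 1956 with siLuc on the set with the smaller p. That is 1.37-fold (unadjusted p = 0.0868), while the brighter set gave 0.887-fold. Groups overlapped on all 4 of these sets.

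CA12, a carbonic anhydrase on the cell surface that handles acid load, had 6 probe sets with folds between 0.681 and 1.53. The one with the smallest p had 1733, 1421 and 1482 with siPTHrP and 2740, 2146 and 1413 with siLuc (0.762-fold, unadjusted p = 0.2). The highest fold, 1.53, came with a siLuc value of 209.1 in experiment 1 beside 2150 and 1726, and it was 0.766 without that experiment. The remaining genes had folds from 0.928 to 1.17, with intervals that include 1. NDRG1, a stress-response protein, stood at 1.05-fold (0.800 to 1.37), ADM, the vasodilator adrenomedullin, at 0.928-fold, and MXI1, an antagonist of MYC, at 1.17-fold. P4HA1 and P4HA2, catalytic subunits of collagen prolyl hydroxylase, stood at 1.02-fold and 0.962-fold, and KDM3A, a histone demethylase, at 1.05-fold.

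**Figure D3:**
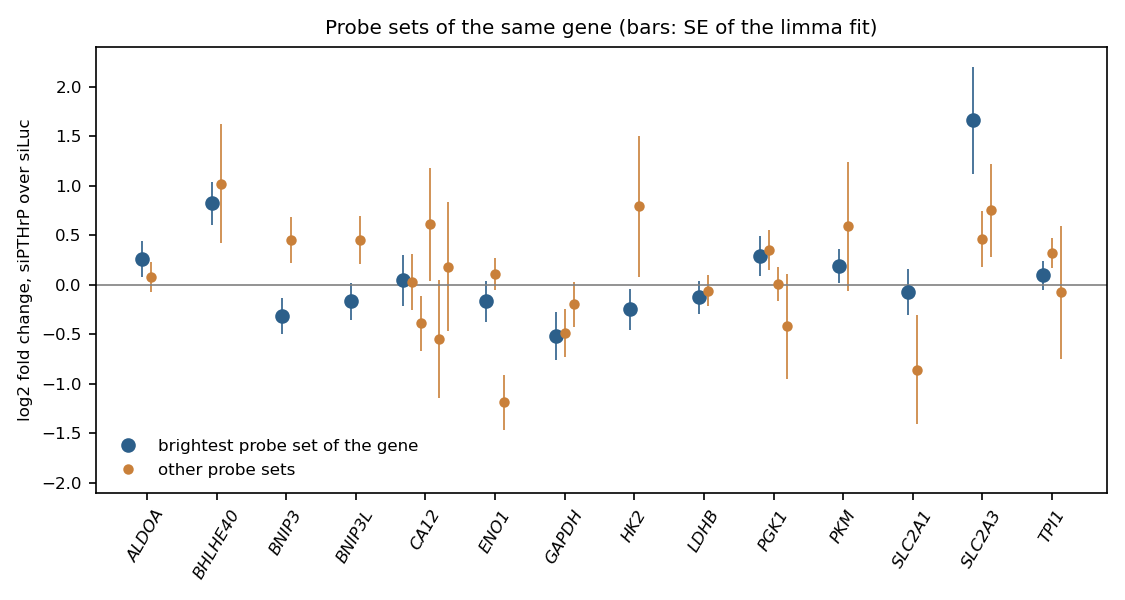
log2 fold change (siPTHrP over siLuc, y axis) of each tested probe set for the 14 member genes with several, with bars for the SE of the limma fit. The sets of 7 genes lie on both sides of 0, among them BNIP3, BNIP3L, ENO1 and CA12, while all 3 sets of SLC2A3 and of GAPDH lie on 1 side.

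Hypoxia-inducible factors bind short sites built on the letters ACGTG or GCGTG, and the promoters of a few members are shown to let their sites be set beside their values. The stretches are the 250 bases before the RefSeq start on GRCh38.p14, 5′ to 3′, for BHLHE40 and HIF1A, both higher with siPTHrP, and for LDHA and PGK1, well-known hypoxia targets with smaller differences. Where a gene has several starts, the one with most ACGTG matches is shown, or with none, most GCGTG matches. Capitals mark ACGTG on either strand (CACGT on the strand shown).
BHLHE40 (chr3:4979187-4979436, plus strand): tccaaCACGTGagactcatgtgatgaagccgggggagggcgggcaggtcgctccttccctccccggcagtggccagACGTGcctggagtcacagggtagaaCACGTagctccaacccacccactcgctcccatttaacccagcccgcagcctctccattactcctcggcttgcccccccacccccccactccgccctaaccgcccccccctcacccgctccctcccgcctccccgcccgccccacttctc
HIF1A (chr14:61695263-61695512, plus strand): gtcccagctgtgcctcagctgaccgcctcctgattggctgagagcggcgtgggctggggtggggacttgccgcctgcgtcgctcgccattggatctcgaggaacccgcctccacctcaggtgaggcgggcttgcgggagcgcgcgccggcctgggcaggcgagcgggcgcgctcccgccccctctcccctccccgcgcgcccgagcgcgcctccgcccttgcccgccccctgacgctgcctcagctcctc
LDHA (chr11:18394313-18394562, plus strand): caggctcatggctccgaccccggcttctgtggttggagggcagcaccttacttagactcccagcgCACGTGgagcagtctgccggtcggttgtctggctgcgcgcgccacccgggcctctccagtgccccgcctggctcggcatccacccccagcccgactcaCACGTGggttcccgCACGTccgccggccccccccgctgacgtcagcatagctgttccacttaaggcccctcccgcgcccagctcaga
PGK1 (chrX:78103998-78104247, plus strand): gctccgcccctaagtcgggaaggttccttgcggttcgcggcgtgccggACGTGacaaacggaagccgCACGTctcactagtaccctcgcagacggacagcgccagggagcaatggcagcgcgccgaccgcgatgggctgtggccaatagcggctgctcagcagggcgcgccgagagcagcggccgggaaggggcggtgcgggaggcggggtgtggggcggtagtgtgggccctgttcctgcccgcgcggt

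Of ACGTG, BHLHE40 held 4 matches counted over both strands, LDHA 5, PGK1 2 and HIF1A 0. GCGTG, which is not marked, had 1 match in the HIF1A window, 1 in that of PGK1, and 0 in those of BHLHE40 and LDHA. The sequence CACGTG, also a site of MYC-type and clock factors, counts once per strand here. ACGTG was found in 18.5% of all 35116 such windows of the promoter table, and GCGTG in 32.2%. Counting each gene by its best start, 18 of 30 members in the table held ACGTG, or 60%, against 21.7% of 27305 genes. For GCGTG it was 17 of 30, or 56.7% against 36.2%. Base composition and the number of starts per gene were not matched, and the 30 members had 54 starts. Members were listed partly as known hypoxia-induced genes, so these shares are not a result of the siRNA comparison. SLC2A3, NDRG1 and BNIP3L are not among these 30. Of the measured members, 16 held ACGTG and had a median of 0.057 for the log2 fold change, beside 0.045 for the 12 that did not. A match is a description of the letters in the window and says nothing of binding in these cells.

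Among other genes of oxygen sensing, EPAS1 was the one with the smallest p. EPAS1, the HIF2 alpha subunit that pairs with ARNT as HIF1A does, had 3452, 2676 and 4395 in siPTHrP cells and 1843, 1160 and 2298 in siLuc cells. The groups did not overlap, at 2.01-fold (log2 1.01, SE 0.23, unadjusted p = 0.00177, adjusted p = 0.321), and 2.09-fold without experiment 1 (adjusted p = 0.0776). With arrays weighted by their fit the adjusted p was 0.0209. Its dimmer probe set gave 0.977-fold. RBX1, a subunit of the ubiquitin ligase that targets hydroxylated HIF1A, had 4550, 4363 and 6057 with siPTHrP and 4146, 3466 and 2637 with siLuc. That was 1.47-fold (unadjusted p = 0.0482). ELOB, elongin B of the same ligase, had 664, 616 and 270 with siPTHrP and 2298, 1253 and 829 with siLuc on a dim probe set. These groups did not overlap (0.367-fold, unadjusted p = 0.00738), while a far brighter set gave 1.12-fold. In all, 18 probe sets of 11 genes on this list were tested, and 2 were higher and 1 lower at an unadjusted p under 0.05, or 16.7% beside 12.1% over all tested probe sets.

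Further hypoxia-induced genes had 52 tested probe sets of 32 genes, with 0 past the adjusted threshold and 7 higher and 2 lower at an unadjusted p under 0.05. This was 17.3% of the list's tested sets, beside 12.1% over all. JMJD6 had 1 of the 2 lower sets, at 0.59-fold (unadjusted p = 0.0395) with no overlap of the groups, while another gave 1.03-fold. The 4 genes described next had the smallest p, and on that set all 4 were higher. HIGD1A, a mitochondrial protein induced by hypoxia, had 7281, 6644 and 9963 with siPTHrP and 5538, 4681 and 5737 with siLuc. Its groups did not overlap on either of its 2 probe sets (1.48-fold, unadjusted p = 0.0111, and 1.44-fold, unadjusted p = 0.0155). GBE1, the glycogen branching enzyme, had 11163, 10065 and 10017 with siPTHrP and 7278, 8343 and 6683 with siLuc, or 1.4-fold (unadjusted p = 0.0171). The groups of GBE1 did not overlap either. RBPJ, the DNA-binding factor of the Notch pathway, had 4542, 6712 and 2626 with siPTHrP and 2670, 3791 and 2023 with siLuc, which overlapped and gave 1.57-fold (unadjusted p = 0.0123) on one probe set and 0.847-fold on another. With no replicate block the first had an unadjusted p of 0.0918. MAFF, a small MAF factor, had 5030, 5858 and 2596 with siPTHrP and 1617, 3550 and 2278 with siLuc. These overlapped too, at 1.8-fold (unadjusted p = 0.0153) and at 1.37-fold without experiment 1. Its second probe set gave 1.17-fold, with 2.75-fold, 0.595-fold and 0.967-fold in experiments 1, 2 and 3, and 0.759-fold without experiment 1. VEGFA, the classical hypoxia-induced growth factor for vessels, lay between 0.931-fold and 1.22-fold on its 4 probe sets.

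Other genes of glycolysis and pyruvate use had 22 tested probe sets of 17 genes, of which 0 had an unadjusted p under 0.05. The median log2 fold change over the brightest probe set of each of 25 genes, those too dim for the test included, was -0.14. Over all 22215 probe sets that are not controls, dim ones included, the median was -0.163. The latter takes every probe set and not the brightest per gene, so the medians are of unlike sets. On the pentose phosphate pathway, which branches off glucose phosphate to make ribose and NADPH, 1 of 12 tested probe sets had an unadjusted p under 0.05, or 8.33% beside 12.1% over all. It belonged to TKT, transketolase, with 23522, 32349 and 19351 in siPTHrP cells and 18570, 25262 and 11981 in siLuc cells. TKT was higher in 3 of 3 experiments, while the groups overlapped (1.38-fold, unadjusted p = 0.0179, adjusted p = 0.366). With no replicate block its unadjusted p was 0.139.

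**Figure D4:**
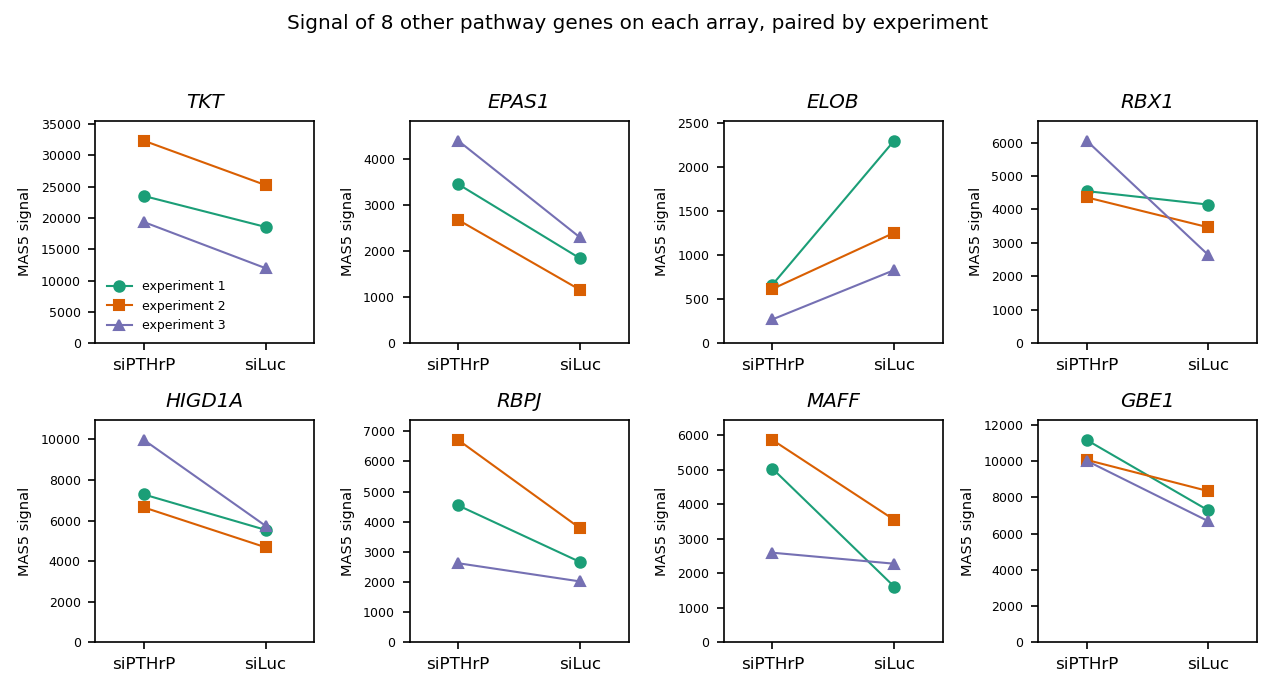
MAS5 signal (linear, y axis from 0) on each array for 8 genes of the pathway that are not among the 33, with siPTHrP on the left, siLuc on the right and lines joining arrays of 1 experiment. EPAS1, RBX1, HIGD1A and GBE1 show all siPTHrP points above all siLuc points, and the ELOB probe set shows all below.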

How the data were processed

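Total RNA of 6 MDA-MB-231 samples was measured on Affymetrix human expression arrays, 1 array per RNA. The deposited values were linear signal intensities, and the submitters' processing notes name MAS5, for which a version is not given in the sources used here. Every array had a trimmed mean intensity (2% off each end) of 1500.4 to 1500.6, and no further scaling was applied. On the siLuc array of experiment 1, 90.1% of the values had decimals, while the other arrays held whole numbers. MAS5 subtracts mismatch signal, so dim probe sets have large errors. The number of arrays limits precision.

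Probe sets were named from the platform annotation: 19071 had 1 gene, 1043 several and 2169 none. Symbols of 19059 were updated through Entrez identifiers to RefSeq (GRCh38.p14), which also gave the promoter sequences. Leaving out 68 control probe sets and those with a mean log2(intensity + 16) under its 40th percentile (8.614) left 13329. limma 3.58.1 (R 4.3.3) was fitted with siRNA and experiment as terms and a prior variance that follows intensity. It had 2 residual and 7.17 prior degrees of freedom, so the prior variance weighed more than a probe set's own spread. The p-values had Benjamini-Hochberg adjustment over all tested probe sets. The offset of 16 shrinks folds of dim probe sets. The fit was tested on simulated data. Alternatives varied the block, offset, normalization, filter, trend, array weights, probe set kinds and the experiments used.

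Experiment numbers pair the samples because, per the design text, each experiment supplied 1 RNA of either siRNA for comparison. The unnumbered siLuc sample was taken as experiment 1 by elimination, and a title was followed where its description differed. Deviations from group means correlated at -0.012, 0.157 and 0.157 within experiments 1, 2 and 3 and at -0.206 to 0.132 otherwise. Members and lists were chosen with earlier results of these data known. Array values are given for up to 5, 2 and 5 genes per member group with the smallest p, plus HIF1A, GAPDH and LDHA, and for up to 4 genes per other list with an unadjusted p under 0.05.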

Additional observations from a re-analysis of the deposited data

How the results depend on the processing

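The count of 0 probe sets past an adjusted p of 0.05 became 177 with array weights (0.386, 2.23 and 1.16 for experiments 1, 2 and 3) and 5 when probe sets marked _x_at or _s_at were dropped. Leaving out 1 experiment gave 38 to 175, and leaving out the siLuc array of experiment 1, unpaired, gave 0. Members past it numbered 2 with array weights (ENO1 at adjusted p = 0.0263 and BHLHE40 at 0.0409) and 0 to 2 with an experiment left out. SLC2A3 passed at 0.0270 without experiment 2, and SLC2A3 and ENO1 at 0.000664 and 0.000181 without experiment 3. Of other named genes EPAS1 passed with array weights (0.0209) and MAFF without experiment 3 (0.0323). Fits with 2 experiments have 1 residual degree of freedom and lean on the prior variance still more than the main fit. At an unadjusted p under 0.05, the 4 higher and 1 lower member probe sets became 2 and 1 with no replicate block. They became 2 and 2 with quantile normalization, 10 and 1 with median centring of each array, 1 and 1 with no intensity trend, 7 and 3 with array weights, 1 and 0 with _x_at and _s_at sets dropped, and 4 and 2 with no filter. Leaving out an experiment or array gave 4 to 6 higher and 1 to 4 lower. With no replicate block, PGAM1, HIF1A, TKT and RBPJ had an unadjusted p above 0.05 (0.0883, 0.0550, 0.139 and 0.0918), and the count over all tested probe sets was 1378 in place of 1618. Median centring moved the median of all tested probe sets to 0.356, and the enzymes and hypoxia genes to 0.37 and 0.38, or 0.017 and 0.025 above that shift. Leaving out an experiment or array gave medians of -0.076 to 0.13 for the enzymes and -0.075 to 0.16 for the hypoxia genes. With _x_at and _s_at sets dropped the hypoxia median was 0.43, beside -0.0257 for all tested probe sets of that fit. This left out BHLHE40, KDM3A, NDRG1 and P4HA1, which have no other sets, and ADM and P4HA2 lay below 0. The transporters, then SLC2A1 alone, had a median of -0.86. LDHA turned to 0.29 with median centring, to 0.041 with centring over the tested probe sets, a setting chosen after seeing the data, and to 0.069 without experiment 2, the upper end of -0.11 to 0.069 over the 3 experiments left out. Of the other 20 genes the 1 probe set chosen by the naming rule kept its sign in all its alternatives. Among the other 41 member probe sets up to 13 changed sign (median centring), BNIP3's brighter set to 0.01 among them, and ENO1's brightest turned to 0.16 with median centring and 0.12 without experiment 2, its second to -0.023 with quantile normalization. The causes were not tested. Intensities carry no depth, and dim probe sets limit what could be seen.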

Other observations

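On the pentose phosphate pathway 10 of 12 tested probe sets lay above 0, beside 52.5% of all tested probe sets, and 3 of them had groups that did not overlap, all higher with siPTHrP. Over all tested probe sets 8.94% were higher without overlap. The sets named here were singled out after their values were seen. Both probe sets of PGLS, which hydrolyses the first product of the pathway, were among them, at 1.35-fold (unadjusted p = 0.0568) and 1.33-fold (unadjusted p = 0.0757). Without experiment 1 the 1.35-fold became 1.51-fold and the 1.33-fold became 1.16-fold. RPIA, which makes ribose phosphate, was the third, with 2121, 2591 and 2413 in siPTHrP cells and 1457, 2083 and 1522 in siLuc cells (1.42-fold, unadjusted p = 0.0773). None passed the adjusted threshold in limma.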
